A study of Mus musculus with 4 samples.

Results

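The hemidesmosome and laminin-332 genes Itga6, Itgb4, Col17a1, Dst, Plec, Cd151, Lama3 and Lamb3 were taken by gene symbol from the expression values of hair follicle stem cells (HFSCs) in culture. These are 8 of the 24346 genes listed for every library. In both groups the starting cells were sorted from dorsal skin of C3H/HeN mice aged 4 weeks as positive for both CD34 and CD49f, then grown in the serum-free medium M-CnT with a passage every week. The libraries were 2 of cells after 10 passages (10p-HFSCs) and 2 of cells after 48 passages (48p-HFSCs). Whether the libraries of a group came from separate cultures is not stated, so the p-values below measure the spread between these libraries, which may be technical. CD49f is the protein of Itga6, one of the 8 genes, so the starting cells of both groups had been selected for it.

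Hemidesmosomes are the plaques by which basal keratinocytes hold on to the basement membrane. Integrin α6β4 and collagen XVII span the cell membrane there, the plakins plectin and dystonin (BPAG1) link them to keratin filaments inside the cell, and the tetraspanin CD151 associates with laminin-binding integrins. Outside the cell, α6β4 binds laminin-332, a laminin trimer that keratinocytes secrete themselves. In the hair follicle, integrin α6 and collagen XVII are known for their high level in the stem cells of the bulge and for anchoring them to their niche.

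Values are in FPKM, a read density scaled by both gene length and library size, so that levels of different genes can be set side by side. The 4 libraries differed in summed FPKM, from 581516 in replicate 1 of 10p-HFSCs to 1414950 in replicate 2 of 48p-HFSCs. That last library had an estimated 46.7% of the depth of the first, judged from the most common ratio between their low values. Of 927 genes with low values compared, 184 lay at or near that ratio, so the figure is approximate. Of 4 markers of basal keratinocytes, Krt5, Krt14, Trp63 and Cdh3, all were expressed in every library, the lowest value being 22.1 for Cdh3, and none was called (0 genes by limma, 1 with an unadjusted p under 0.05, lower). Of 7 markers of bulge stem cells, 5 stayed under 1 in every library, Cd34 and Lhx2 among them. In the FPKM of these 4 libraries, such defining markers of the labelled cell type were thus absent or near 0. Protein, and RNA measured by other methods, were not analysed here. The other two were Krt15, at 136, 82.6, 425 and 18.8 over replicates 1 and 2 of 10p- and then of 48p-HFSCs, and Sox9, at 45.6, 44.2, 20.2 and 8.31 in the same order and called lower (limma adjusted p = 0.039). Among 9 fibroblast markers, 7 were under 1 in every library, but Vim and Col1a2 made the summed level of the list 353 and 388 at passage 10, and 2.53 and 3.32 at passage 48. Markers of endothelial cells and melanocytes summed to at most 2.54 and 11.04 in any library. Of 5 suprabasal markers measured, Krt1, Krt10 and Lor were at 0 in every library. Sbsn, at 94.6 and 104 at passage 10, and 234 and 387 at passage 48, was called higher (log2 difference 1.59, limma adjusted p = 0.031). Ivl was at 8.12 and 8.49 at passage 10, and 84.1 and 13.1 at passage 48, and was not called (limma adjusted p = 0.14). The list summed to between 102.7 and 112.8 in 10p-HFSCs and to 318.5 and 399.8 in 48p-HFSCs. Of 5 leukocyte markers, Ptprc, Cd3e and Tyrobp stayed under 1, while Cd74 and Lyz2 made the sum 0.641 and 0.694 at passage 10, and 64.3 and 104.2 at passage 48. The part of these marker differences in the results below was not tested, and in bulk RNA fewer cells of a type and less RNA per cell cannot be told apart.

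All 8 genes were expressed in every library, from an FPKM of 16.4 for Lama3 in replicate 2 of 10p-HFSCs to 274 for Col17a1 in replicate 1 of 10p-HFSCs. Each passed the filter on low values (1 FPKM or more in 2 or more libraries), which kept 11018 genes. With FPKM as deposited, 48p-HFSCs had higher levels than 10p-HFSCs of both α6β4 integrin genes and of the β3 chain gene of laminin-332. The genes of the membrane partners collagen XVII and CD151 and of the plakins passed no test in either direction. By limma on the log2(FPKM + 1) scale, with p-values adjusted over all genes tested, 3 of the 8 genes were called higher (adjusted p under 0.05 and a log2 difference of at least 1), against 10.8% of all genes tested. Of these, Itgb4 was just past both limits and was called in 9 of the 17 settings run. Lama3, the gene of the α3 chain of laminin-332, did not overlap between the groups but was not called. None of the 8 was called lower (0 genes, and 0 with an unadjusted p under 0.05 downward), against 9.15% of all genes. In 4 of the 8 genes every 48p-HFSC value exceeded every 10p-HFSC value, against 31.7% of all genes, and in 0 of the 8 every value was below, against 34.3%. The other 4 genes overlapped between the groups. A log2 difference of at least 1 in either direction was found for 3 of the 8 genes, against 28.9% of all genes, and an unadjusted p under 0.05 for 4 of the 8, against 37.4%. The median log2 difference of the 8 genes was 0.47, and that of all genes tested was -0.03.

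**Figure D1:**
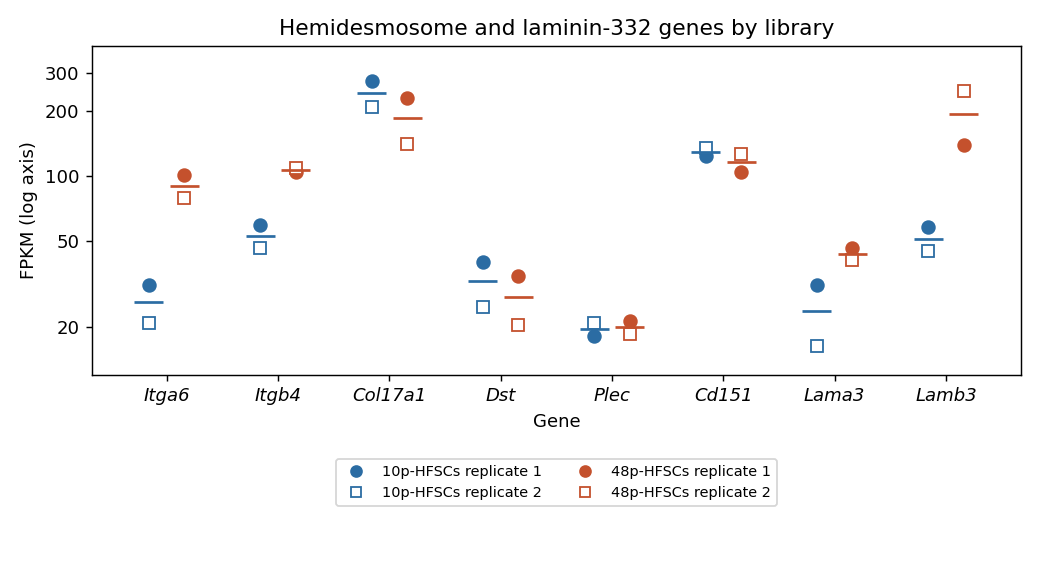
FPKM on a log axis of the 8 genes in each library, with circles for replicate 1, squares for replicate 2 and a short line at each group mean (n = 2). The 48p-HFSC points of Itga6, Itgb4, Lama3 and Lamb3 lie above both 10p-HFSC points of the gene, while those of Col17a1, Dst, Plec and Cd151 overlap with them.

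Itga6 encodes the α6 subunit that pairs with β4 in the hemidesmosome and with β1 elsewhere, and lies on chromosome 2 of mm10 from 71745616 to 71858416. Its FPKM was 31.4 (replicate 1) and 20.8 (replicate 2) in 10p-HFSCs, and 100.998 and 79.0 in the 48p-HFSC libraries. Below, values of a group are given in the order of replicates 1 and 2. The groups did not overlap, and the lower 48p-HFSC library was above the higher 10p-HFSC library by more than the replicates of either group differed. The group means were 26.1 ± 7.52 (SD, n = 2) and 90.0 ± 15.5 (SD, n = 2). The log2 difference was 1.77 (standard error 0.31, 95% interval 1.01 to 2.53, limma adjusted p = 0.014). Among all genes tested, Itga6 stood at the 76.0th and 66.4th percentile of level in the 10p-HFSC libraries and at the 92.8th and 86.8th in the 48p-HFSC libraries. When every library was rescaled to an equal sum (TPM), the median of all genes tested moved to -0.56. Relative to the median, Itga6 then stood at 1.76, against 1.80 with FPKM as deposited. The call was lost after this rescaling (log2 difference 1.201, limma adjusted p = 0.14). It was also lost without replicate 1 of 10p-HFSCs (log2 difference 2.05, limma adjusted p = 0.14) and without replicate 2 of 10p-HFSCs (1.48, limma adjusted p = 0.22), when a single library stood for that group.

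Itgb4, the gene of the β4 subunit whose long cytoplasmic tail binds plectin, lies on chromosome 11 from 115974709 to 116008412. Its FPKM was 59.3 and 46.4 at passage 10, and 105 and 109 at passage 48. The 48p-HFSC libraries were close to each other and both above the 10p-HFSC libraries. The means were 52.8 ± 9.12 (SD, n = 2) and 106.8 ± 2.81 (SD, n = 2). The log2 difference was 1.01 (standard error 0.27, 95% interval 0.35 to 1.68). Relative to the median of all genes tested it was 1.05, and 0.99 after rescaling to TPM. The difference of 1.01 was just past both limits of a call (limma adjusted p = 0.049). This call was lost under 5 other ways of processing, with limma adjusted p-values of 0.060 without the filter on low values, 0.056 with a filter on the mean, 0.053 with a constant variance prior, 0.088 after quantile normalization and 0.51 after rescaling to TPM. It was also lost without replicate 1 or replicate 2 of 10p-HFSCs (limma adjusted p = 0.33 and 0.40) and without replicate 2 of 48p-HFSCs (0.081), with log2 differences of 1.19, 0.84 and 0.98.

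The ratio of the integrin genes to each other does not depend on the scaling of a library. Per Itgb4, the level of Itga6 was 0.529 and 0.447 in the 10p-HFSC libraries and 0.964 and 0.727 in the 48p-HFSC libraries, so that the α6 gene approached the level of the β4 gene after 48 passages. The gene of the other partner of α6, Itgb1, was at an FPKM of 281 and 206 at passage 10, and 108 and 151 at passage 48. Its log2 difference of -0.91 (95% interval -1.77 to -0.05) was not called (limma adjusted p = 0.12), but it was called lower after rescaling to TPM (-1.49, limma adjusted p = 0.010) and after quantile normalization (-1.33, limma adjusted p = 0.017). The median of all genes tested was -0.56 after rescaling to TPM and -0.07 after quantile normalization. The ratio of Itgb4 to Itgb1 was 0.211 and 0.225 at passage 10, and 0.967 and 0.721 at passage 48. The ratio of Itga6 to Itgb1 was 0.112 and 0.101 at passage 10, and 0.932 and 0.524 at passage 48. On the log2 scale these ratios rose by 0.78, 1.94 and 2.72 between the group means, and in each of them the groups did not overlap. With 2 libraries against 2, the exact permutation test gave its smallest possible two-sided p of 0.333 for each (0.381 after adjustment over the 8 ratios computed), so the exact test could not reach a p under 0.05 for a ratio with this number of libraries.

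**Figure D2:**
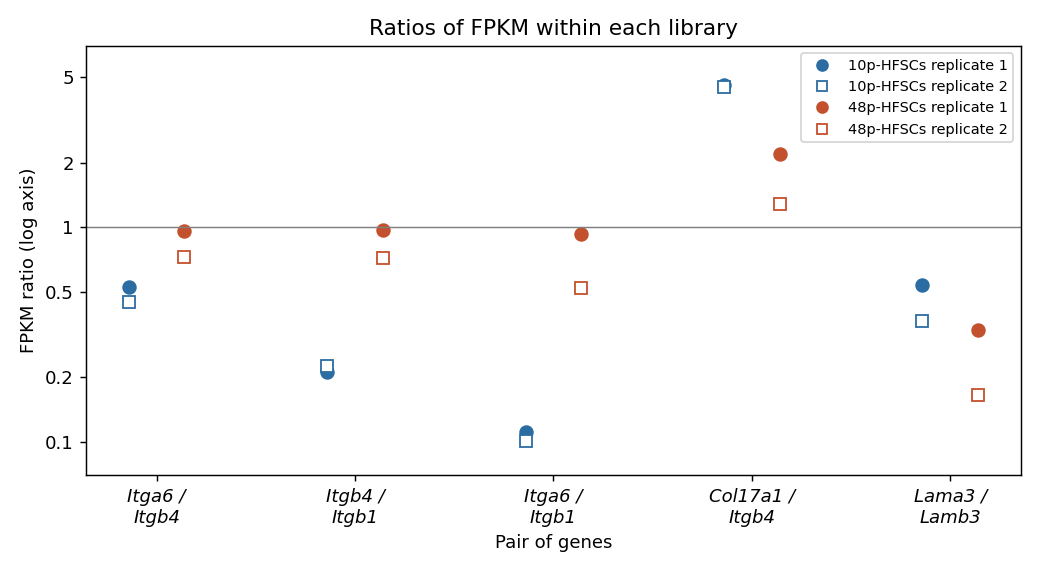
Ratios of FPKM between pairs of genes within each library, on a log axis, with circles for replicate 1 and squares for replicate 2. The ratio of Itgb4 to Itgb1 lies at 0.211 and 0.225 at passage 10, and 0.967 and 0.721 at passage 48, and the ratio of Col17a1 to Itgb4 moves the other way, from 4.63 and 4.51 to 2.197 and 1.29.

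Col17a1, on chromosome 19 from 47646344 to 47692094, encodes collagen XVII, the transmembrane collagen that joins α6β4 in the hemidesmosome. It was the highest of the 8 genes in 3 of the 4 libraries, with an FPKM of 274 and 209 at passage 10, and 230 and 140 at passage 48. The groups overlapped, and in both of them replicate 2 was the lower library. The log2 difference of -0.41 was not called (standard error 0.39, 95% interval -1.37 to 0.54, limma adjusted p = 0.47), and the interval reaches beyond a log2 fall of 1. For each unit of Itgb4 there were 4.63 and 4.51 of Col17a1 at passage 10, and 2.197 and 1.29 at passage 48, without overlap between the groups (exact permutation test, two-sided p = 0.333, the smallest possible). Lamb3 was above Col17a1 in replicate 2 of 48p-HFSCs, the only library in which another of the 8 genes came first.

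Cd151, on chromosome 7 from 141467392 to 141471473, encodes a tetraspanin that binds the α3 and α6 integrins. Its FPKM was 123 and 134 at passage 10, and 105 and 127 at passage 48. The groups overlapped and replicate 2 was the higher library in both. The log2 difference was -0.16 (standard error 0.28, 95% interval -0.86 to 0.54, limma adjusted p = 0.71). Both genes were highly expressed throughout, with a lowest percentile of level of 91.3 for Cd151 and 92.1 for Col17a1.

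The plakins Plec and Dst, which encode plectin and dystonin, tie the membrane proteins to keratins. Plec lies on chromosome 15 from 76170974 to 76232574, and its FPKM was 18.2 and 20.9 at passage 10, and 21.3 and 18.4 at passage 48. Its groups overlapped, and the log2 difference was 0.022 (standard error 0.25, 95% interval -0.60 to 0.64, limma adjusted p = 0.96). Dst, on chromosome 1 from 33908225 to 34308661, was at 40.1 and 24.8 at passage 10, and 34.5 and 20.5 at passage 48. Replicate 2 was the lower library in both groups by more than the group means differed, and the log2 difference was -0.24 (standard error 0.37, 95% interval -1.15 to 0.68, limma adjusted p = 0.67). The sign of both differences moved with the processing. Corrected for the length and GC content of transcripts, Dst was at 0.25, and Plec was at -0.54 after rescaling to TPM, which moved the median of all genes to -0.56, so that Plec stood at 0.022 relative to that median. Dst was also at 0.10 without replicate 1 of 10p-HFSCs and at 0.12 without replicate 2 of 48p-HFSCs, and Plec at -0.074 without replicate 1 of 10p-HFSCs and at -0.078 without replicate 1 of 48p-HFSCs. The span of Plec overlaps Parp10 on the same strand, which was at 8.0005 and 6.96 at passage 10, and 17.9 and 8.64 at passage 48.

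A single value per gene sums over isoforms that differ in function. The annotation used here (GENCODE M21) holds 14 coding transcripts of Dst, from 776 to 23279 bases, and 21 of Plec, from 254 to 15455 bases. Dst makes a long neuronal and muscle form from upstream starts and the shorter epithelial form BPAG1e, the hemidesmosomal one, from a start inside the gene. The 250 bases before 2 of its start sites in RefSeq are shown as examples of starts inside the gene, both on the forward strand of GRCm38.p6, the assembly of mm10. They lie at chr1:34011345-34011594 and chr1:34160010-34160259, in introns of longer Dst transcripts, and capitals mark matches to a GC box.
Dst, first window: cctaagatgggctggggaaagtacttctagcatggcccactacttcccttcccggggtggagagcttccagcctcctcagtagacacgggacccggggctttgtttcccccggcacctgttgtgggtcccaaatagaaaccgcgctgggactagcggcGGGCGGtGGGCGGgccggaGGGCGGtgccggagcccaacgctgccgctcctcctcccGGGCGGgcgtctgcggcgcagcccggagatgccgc
Dst, second window: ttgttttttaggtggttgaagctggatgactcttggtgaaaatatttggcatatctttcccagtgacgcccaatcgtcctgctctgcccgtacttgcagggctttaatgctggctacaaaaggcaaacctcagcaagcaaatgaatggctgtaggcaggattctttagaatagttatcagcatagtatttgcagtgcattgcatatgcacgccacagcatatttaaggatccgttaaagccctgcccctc
The first window holds 4 GC boxes (GGGCGG, searched on both strands) and the second none. Which start was in use cannot be read from FPKM values of the whole gene, so the Dst values above are not those of BPAG1e alone.

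Lamb3, on chromosome 1 from 193207699 to 193343878, encodes the β3 chain of laminin-332. With FPKM as deposited it had the largest log2 difference of the 8 genes, while Itga6 came first after quantile normalization (1.63 against 1.51). Its FPKM was 57.8 and 44.7 at passage 10, and 139 and 246 at passage 48. Both 48p-HFSC libraries lay above the 10p-HFSC libraries, but they also differed from each other, with the higher value in replicate 2. The means were 51.3 ± 9.26 (SD, n = 2) and 193 ± 76.0 (SD, n = 2). The log2 difference was 1.84 (standard error 0.37, 95% interval 0.93 to 2.75, limma adjusted p = 0.022). Lamb3 was the only one of the 8 genes that stayed called after rescaling to TPM (log2 difference 1.27, limma adjusted p = 0.031). The call was lost without replicate 1 of 10p-HFSCs (2.02, limma adjusted p = 0.24) and without replicate 2 of 10p-HFSCs (1.66, limma adjusted p = 0.28). The annotated span of Lamb3 overlaps Hsd11b1 and G0s2 on the opposite strand. Hsd11b1 was at 0.085 and 0.060 at passage 10, and 1.91 and 5.39 at passage 48, and G0s2 at most at 0.163. The strand setting of the authors' quantification is not stated, so reads of such partners may not have been told apart.

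The bases before the RefSeq start sites of Lamb3 and Col17a1 are shown beside each other, as a gene called higher and a membrane partner without a call. The Lamb3 window is chr1:193301744-193301992 on the forward strand, in an intron of longer Lamb3 transcripts, and the Col17a1 window is chr19:47692095-47692292 on the reverse strand, upstream of the gene. The RefSeq table had entries for 4 of the 8 genes, and none for Itga6, Itgb4, Plec and Lama3. Bases that the annotation places in an exon were left out, which left windows for 3 of the 4, and capitals mark matches to a TATA box.
Lamb3: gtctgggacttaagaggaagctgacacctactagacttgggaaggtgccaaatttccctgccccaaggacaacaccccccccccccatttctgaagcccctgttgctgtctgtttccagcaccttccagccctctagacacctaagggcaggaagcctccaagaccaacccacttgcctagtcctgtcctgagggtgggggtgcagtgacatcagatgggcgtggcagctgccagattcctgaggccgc
Col17a1: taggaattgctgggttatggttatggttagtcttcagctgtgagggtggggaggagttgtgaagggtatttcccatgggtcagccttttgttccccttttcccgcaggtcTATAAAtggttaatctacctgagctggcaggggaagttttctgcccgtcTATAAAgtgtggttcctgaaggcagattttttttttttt
Searched on both strands were the AP-1 motif TGANTCA, the GC box GGGCGG and the TATA box TATAAA, and no matches overlapped each other in the windows printed. The Lamb3 window held no match to any of these, and that of Col17a1 held 2 TATA boxes and no other match. Of 32841 promoter windows of 250 bases in the RefSeq table, 6.75% held the AP-1 motif, 32.7% the GC box and 12.4% the TATA box. A match is a run of letters and not a shown site of binding.

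Lama3, on chromosome 18 from 12333819 to 12583013, encodes the α3 chain, which carries the domain that integrins bind. Its FPKM was 31.1 and 16.4 at passage 10, and 46.4 and 40.8 at passage 48. The groups did not overlap, but the 10p-HFSC libraries differed from each other by about as much as the groups did (log2 ratio of -0.93). The log2 difference of 0.91 was not called (standard error 0.35, 95% interval 0.04 to 1.78, limma adjusted p = 0.12). Corrected for length and GC content of transcripts, it was 1.28 and passed the test (limma adjusted p = 0.022). The annotation holds a long and a short Lama3 transcript of 10548 and 5551 bases, and the gene's FPKM sums over both.

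Relative to Lamb3, the level of Lama3 was 0.538 and 0.366 at passage 10, and 0.334 and 0.166 at passage 48. The groups did not overlap, although the values of replicate 2 of 10p-HFSCs and replicate 1 of 48p-HFSCs were close, and the exact permutation test gave its smallest two-sided p of 0.333. The ratio of Lama3 to Lama5, the other α chain gene expressed, overlapped between the groups (1.38 and 0.803 at passage 10, 1.12 and 0.638 at passage 48, exact permutation test, two-sided p = 0.667).

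**Figure D3:**
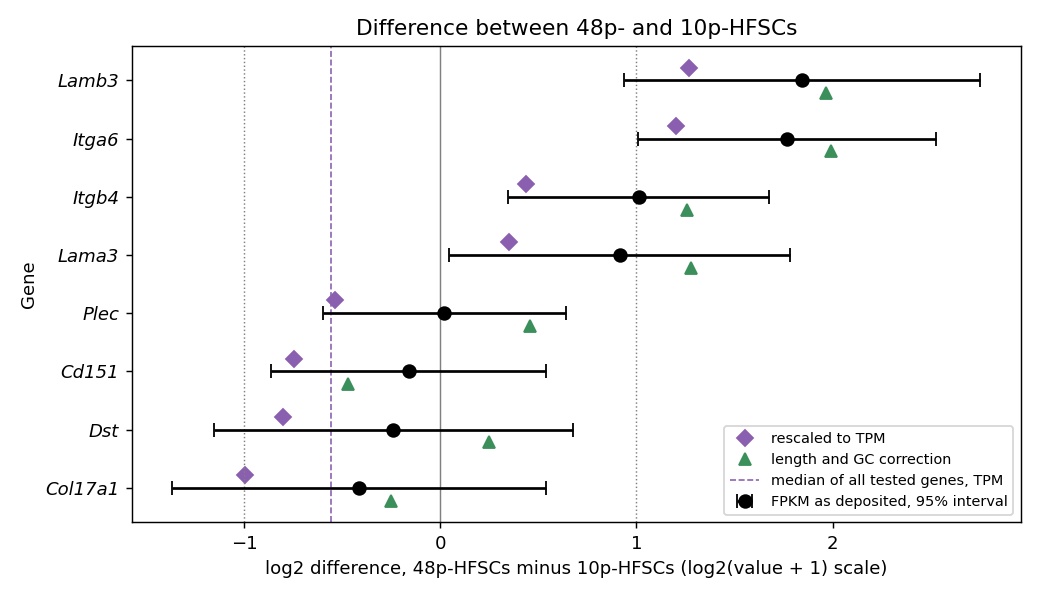
The log2 difference between 48p- and 10p-HFSCs of each of the 8 genes, with black circles and 95% intervals from limma on FPKM as deposited, purple diamonds after rescaling to TPM and green triangles with a length and GC correction. The dashed line is the median of all genes tested after rescaling to TPM, -0.56, and the dotted lines mark log2 differences of -1 and 1. Lamb3 and Itga6 lie past 1 in all 3 versions, and Col17a1 and Cd151 below 0 in all 3.

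The other genes of the basement membrane and of its cell contacts were taken as 8 lists of 68 genes, of which 45 were tested. Of these, 9 were called higher and 0 lower (limma), against 10.8% and 9.15% of all genes tested, although 4 genes had an unadjusted p under 0.05 downward. The same shares stand against the counts of each list below. The 9 include Tspan1, which passed the filter on low values only through the 48p-HFSC libraries. After rescaling to TPM, which moved the median of all genes tested to -0.56, 2 of the 45 genes were called higher and 1 lower. After quantile normalization 7 were called higher and 3 lower (Itgb1, Col4a1 and Macf1). Without replicate 1 or replicate 2 of 10p-HFSCs 1 gene was called higher in either case, without replicate 1 of 48p-HFSCs 12 were called higher and 4 lower, and without replicate 2 of 48p-HFSCs 5 were called higher.

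Among the genes of other laminin chains, Lama5, the gene of the α5 chain of laminin-511, rose from an FPKM of 22.6 and 20.4 to 41.4 and 64.0 (log2 difference 1.22, limma adjusted p = 0.038). Its call was lost after rescaling to TPM (log2 difference 0.66, limma adjusted p = 0.36) and without the filter on low values (limma adjusted p = 0.066). The call was also lost without replicate 1 or 2 of 10p-HFSCs (log2 differences 1.29 and 1.15) and without replicate 2 of 48p-HFSCs (0.91). Lamb1, Lamb2 and Lamc1 had log2 differences of 0.41, 0.19 and 0.12 and were not called. Lama1, Lama2, Lama4 and Lamc3 stayed under an FPKM of 1 in every library.

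Of 17 other genes of the basement membrane and of anchoring fibrils, 8 were tested and 3 were called higher, with a median log2 difference of 0.90. Agrn, which encodes the heparan sulfate proteoglycan agrin, rose from 38.6 and 36.2 to 105 and 145 (log2 difference 1.70, limma adjusted p = 0.012). Col7a1, the gene of the anchoring fibril collagen VII, rose from 7.94 and 8.18 to 28.5 and 22.6 (1.54, limma adjusted p = 0.013). Hspg2, the gene of perlecan, rose from 2.68 and 1.71 to 6.65 and 10.2 (1.55, limma adjusted p = 0.026). All 3 calls were lost after rescaling to TPM, with limma adjusted p-values of 0.072, 0.32 and 0.31, and without replicate 1 or 2 of 10p-HFSCs, with limma adjusted p-values between 0.21 and 0.30. That of Hspg2 was also lost without the filter on low values (limma adjusted p = 0.072) and without replicate 2 of 48p-HFSCs (log2 difference 1.28). Col4a1, which encodes a chain of the collagen IV network, was at 43.8 and 30.9 at passage 10, and 16.8 and 20.5 at passage 48, and was not called (log2 difference -0.95, limma adjusted p = 0.067), but was called lower after quantile normalization (-1.03, limma adjusted p = 0.039).

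None of 4 tested genes of other laminin receptors was called (0 genes by limma, with an unadjusted p under 0.05 for 1 gene upward and 1 downward). The upward one was Itga3, the α3 subunit that pairs with β1 and also binds laminin-332, at 106 and 88.0 at passage 10, and 150 and 213 at passage 48 (log2 difference 0.88, limma adjusted p = 0.11). Itga3 was called higher with the replicate block and the length and GC correction together (log2 difference 1.02, limma adjusted p = 0.047). Without replicate 1 of 48p-HFSCs its log2 difference was 1.13. The ratio of Itga3 to Itga6 was 3.36 and 4.24 at passage 10, and 1.48 and 2.69 at passage 48.

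Among other tetraspanins, 3 of 6 tested genes were called higher, with a median log2 difference of 1.02. Cd81, a widely expressed relative of Cd151, was at an FPKM of 1.49 and 2.59 at passage 10, and 149 and 255 at passage 48 (log2 difference 6.03, limma adjusted p = 0.00092). It stayed called in all 14 other fits. Tspan14 rose from 31.8 and 26.0 to 61.1 and 59.4 (1.04, limma adjusted p = 0.037), a call kept in 7 of the 14 other fits. It was lost after rescaling to TPM (log2 difference 0.47, limma adjusted p = 0.53). After quantile normalization (0.92) and the length and GC correction (0.99, with or without the replicate block), it fell under the limit on the log2 difference. The call was also lost without replicate 1 or 2 of 10p-HFSCs (log2 differences 1.18 and 0.90) and without replicate 2 of 48p-HFSCs (1.06). Tspan1 rose from 0.194 and 0.425 to 4.33 and 2.07 (1.63, limma adjusted p = 0.023), a call kept in 10 of the 14 other fits. Tspan1 passed the filter on low values only through the 48p-HFSC libraries, where it is high, so its call is not independent of the filter. The count of called tetraspanins and their median include it. Its call was lost without the filter (limma adjusted p = 0.057) and after rescaling to TPM (log2 difference 1.56, limma adjusted p = 0.075). It was also lost without replicate 1 or 2 of 10p-HFSCs (log2 differences 1.51 and 1.76).

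Of 4 other plakins tested, Evpl, the gene of envoplakin of the cornified envelope, was called higher, from 2.57 and 2.55 to 10.6 and 9.46 (log2 difference 1.63, limma adjusted p = 0.011). This call was lost after rescaling to TPM (limma adjusted p = 0.30) and without replicate 1 or 2 of 10p-HFSCs (0.22 and 0.21). The crosslinker gene Macf1 was at 28.3 and 15.3 at passage 10, and 9.83 and 4.66 at passage 48 (-1.48, limma adjusted p = 0.066, not called). It was called lower after quantile normalization (-1.42, limma adjusted p = 0.047) and without replicate 1 of 48p-HFSCs (-1.95, limma adjusted p = 0.046).

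None of 5 proteases that cut laminin-332 or collagen XVII was called (0 genes by limma, and 0 with an unadjusted p under 0.05), with a median log2 difference of 0.19. None of 10 tested integrin activators and focal adhesion adaptors was called either (0 genes, and 1 with an unadjusted p under 0.05). That gene was Fermt1, which encodes the keratinocyte integrin activator kindlin-1, at 17.4 and 16.2 at passage 10, and 10.2 and 3.87 at passage 48 (log2 difference -1.26, limma adjusted p = 0.093), and it was called lower without replicate 1 of 48p-HFSCs (-1.86, limma adjusted p = 0.015). Of the keratins of basal cells, to which the plakins bind, Krt5 was at 1805 and 1473 at passage 10, and 8156 and 5120 at passage 48, and Krt14 at 1423 and 1217 and at 3896 and 2439. Neither gene overlapped between the groups, as was so upward for 31.7% of all genes tested. Neither was called (log2 differences 1.99 and 1.23, limma adjusted p = 0.18 and 0.28, with 0 of the 3 keratins at an unadjusted p under 0.05). Krt5 was called higher with a constant variance prior (limma adjusted p = 0.0162) and after rescaling to TPM (0.0403).

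**Figure D4:**
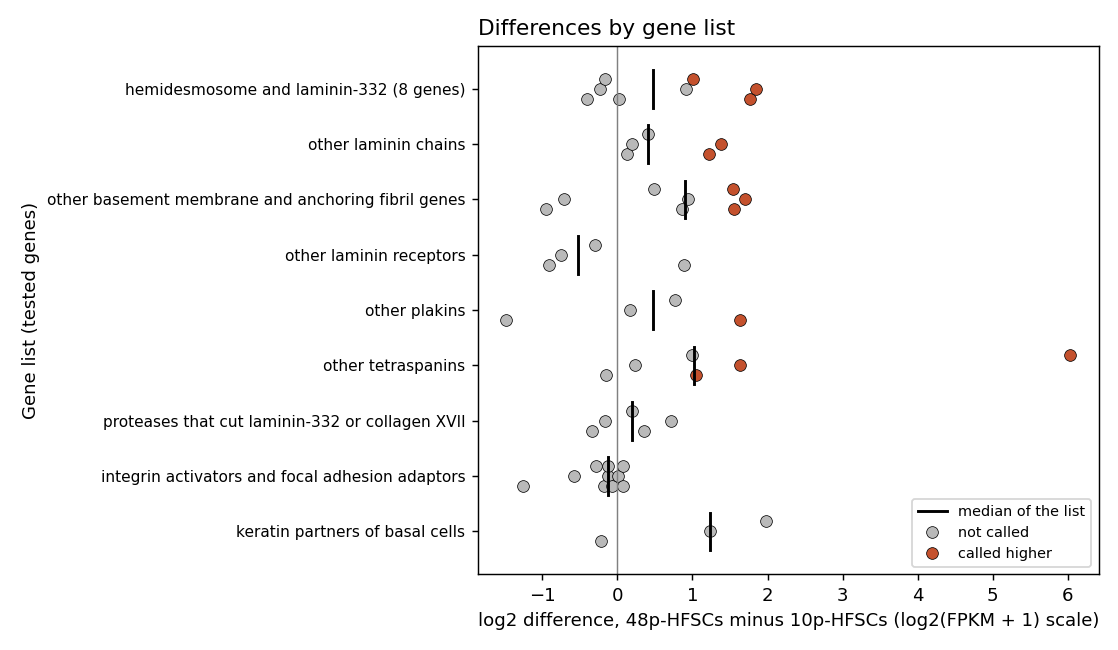
The log2 difference between 48p- and 10p-HFSCs of the tested genes of each list (points, spread vertically for legibility), with a black line at the median of the list and red points for genes called higher by limma. The called genes of the lists lie between 1.01 for Itgb4 and 6.03 for Cd81. With FPKM as deposited, all 4 libraries and no replicate block, no gene of the lists shown was called lower.

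The genes whose pattern was most like that of Itgb4, by Euclidean distance of log2(FPKM + 1) over the 4 libraries, were Pcbp2 (58.9, 50.9, 103 and 109 FPKM over the 10p- and then the 48p-HFSC libraries, distance 0.133), Igbp1 (0.306) and Lgals9 (0.310). For Lamb3 they were Uchl3 (48.4, 58.0, 141 and 218 FPKM, distance 0.478), Anxa5 (0.530) and Ctsh (0.593).

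The spread between replicates went with transcript length for some of the 8 genes and not for others. Replicate 2 over replicate 1 was higher for the shortest, Cd151, in both groups (log2 ratio of 0.12 and 0.28), and lower for the longest, Dst, in both groups (-0.69 and -0.75). Over all genes tested, the median difference of replicate 2 from replicate 1 on the log2(FPKM + 1) scale was 0.23 in 10p-HFSCs and 0.45 in 48p-HFSCs for transcripts under 2000 bases, and -0.25 and -0.30 for those of 5000 bases and over. Other members departed from these medians. Lamb3 was at 0.83 in 48p-HFSCs for 4867 bases, where genes between 2000 and 5000 bases had a median of -0.03. Plec, of 15455 bases, was at 0.20 in 10p-HFSCs, and Itgb4, of 6208 bases, at 0.05 in 48p-HFSCs. Correction for length and GC content called 4 of the 8 genes higher, the 3 above and Lama3.

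**Figure D5:**
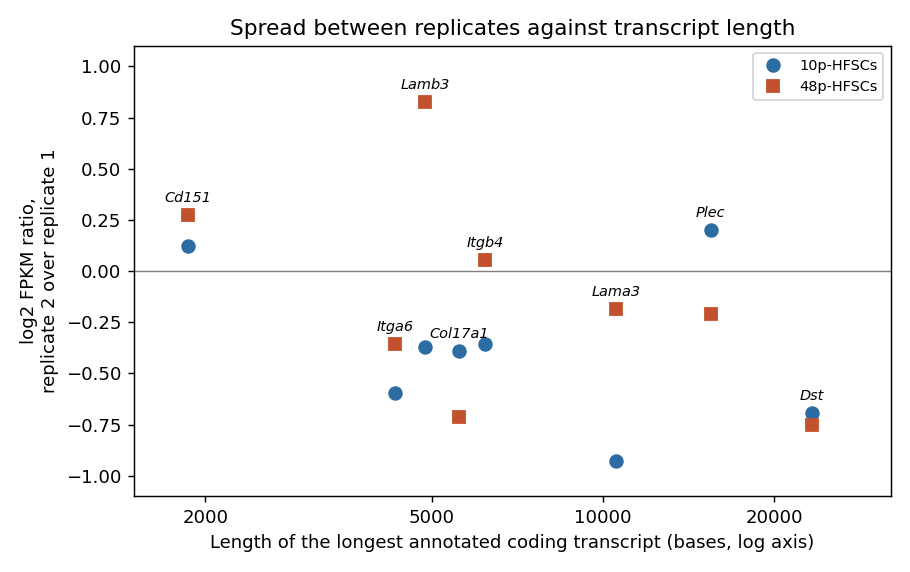
The log2 ratio of FPKM in replicate 2 over replicate 1 of each of the 8 genes, against the length of its longest annotated coding transcript on a log axis, with blue circles for 10p-HFSCs and red squares for 48p-HFSCs. Cd151 lies above 0 and Dst at -0.69 and -0.75 in both groups, and the 48p-HFSC value of Lamb3, 0.83, is the highest of the plot.

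Over the chromosomes that hold one of the 8 genes, the median log2 difference of tested genes was between -0.13 for chromosome 2, which holds Itga6, and 0.27 for chromosome 15, which holds Plec. Relative to the median of its chromosome, the difference was 1.90 for Itga6, 1.85 for Lamb3, 0.92 for Itgb4 and 0.73 for Lama3, and between -0.23 and -0.55 for Col17a1, Dst, Plec and Cd151.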

How the data were processed

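TruSeq stranded mRNA libraries of total RNA from 10p- and 48p-HFSCs were sequenced in single-end mode. Mapping by the authors was to mm10, with TopHat2 2.1.1 per the submitters' processing notes, and they deposited FPKM values per gene symbol from Cufflinks or Cuffdiff 2.2.1. The submitters' processing notes and the paper name different versions of Bowtie2 and SAMtools, and the gene annotation and strand setting are not given in the sources used here. The 8 genes and all lists were chosen with earlier results of these data known, and so were the ratios. The genes to name followed a written rule: all 8 genes, of each list the called genes with the largest differences (at most 4 in each direction), and the 3 genes nearest in pattern to Itgb4 and Lamb3. Itgb1, Itga3, Col4a1, Macf1, Fermt1, Krt5, Krt14, the uncalled laminin chains and genes overlapping Lamb3 or Plec were named after their values were seen.

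Groups were taken from the labelled passage and replicate numbers. FPKM plus a pseudocount of 1 was put on the log2 scale, and limma 3.58.1 (R 4.3.3, variance trend, Benjamini-Hochberg) was run on the 11018 genes with an FPKM of 1 or more in 2 or more libraries. FPKM values are not counts, so no count test was run and depth is known only relative to one library. Lengths, GC content and coordinates came from GENCODE M21, which covered 99.5% of the genes tested. In 10 simulated sets of 11018 genes, 200 genes of each set were changed. The comparison recovered 80.2% of log2 changes of 3 but 4.8% of log2 changes of 1.5. Adjusted p-values depend on how many genes change, and in the data 1189 genes were called higher and 1008 lower. These shares therefore do not measure how many changes of such a size were found here. Moderate changes may still be missed. Alternatives were other pseudocounts, filters, scalings, variance priors and limits, the replicate block, a length and GC correction, and leaving out each library. A gene of the lists is counted in their totals but not reported here by its values.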

Additional observations from a re-analysis of the deposited data

How the results depend on the processing

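Of the 8 genes, 3 were called higher with FPKM as deposited. The count was 1 after rescaling to TPM and between 0 and 3 when 1 library was left out, with 0 without replicate 1 or replicate 2 of 10p-HFSCs. The count of genes called lower stayed at 0 in all alternatives run. Over all genes, 1189 were called higher and 1008 lower, with 623 higher and 812 lower after rescaling to TPM, 637 lower without the filter on low values (genes at 0 in all libraries left out), and between 35 and 1936 higher and between 140 and 1875 lower when 1 library was left out. A group left with 1 library was assumed to vary like the other. Dst turned to 0.25 after the length and GC correction, with or without the replicate block, and lay between -0.60 and 0.12 when 1 library was left out. Plec turned to -0.54 after rescaling to TPM, which moved the median of all genes to -0.56, and lay between -0.078 (without replicate 1 of 48p-HFSCs) and 0.12 when 1 library was left out. The cause of the shifts of Dst, and of Plec when a library was left out, was not tested. Both groups use the numbers 1 and 2, but nothing in the labels says that a number marks a pairing. Across genes, the deviation from the group mean correlated at 0.408 between libraries of equal number. With the replicate block, 3 of the 8 genes were called higher, as without it, 1613 of all genes were called higher and 1497 lower, and of the 45 other genes tested in the lists 9 were called higher and 2 lower, Fermt1 (-1.26, limma adjusted p = 0.0070) and Macf1 (-1.48, limma adjusted p = 0.00097). The replicate block together with the length and GC correction called 4 of the 8 genes. The sequencing depth is known only in relative terms, and by the estimate from low values it was lowest in replicate 2 of 48p-HFSCs.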
